A study of Mus musculus with 22 samples.

Results

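Serine proteases of the epithelial surface, the Kunitz-type inhibitors that hold some of them in check and a receptor that trypsin-like proteases cleave were followed at the RNA level in mouse distal colon. The set held 9 of the 46078 genes in the count table: the proteases Prss22, Prss27, Prss8, St14, Tmprss2 and Tmprss4, the inhibitors Spint1 and Spint2, and the receptor gene F2rl1. Genes were taken by symbol, and each symbol matched 1 gene. The set was chosen by the measured rise of Prss22 in the Winnie-Prolapse group over C57BL/6, so the levels and fold changes of Prss22 below are descriptions without a test. The other 8 genes were added for their known function, with earlier results of these data already known. Their p-values, that of Prss27 included, therefore do not come from a choice made without sight of the data.

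The libraries came from 8 C57BL/6 mice (4 males and 4 females, 14 weeks old), 7 Winnie mice (3 males and 4 females, 14 weeks old) and 7 Winnie-Prolapse mice (4 males and 3 females, 18 weeks old). Winnie mice develop colitis spontaneously because of a missense mutation in Muc2, the gene of the main goblet cell mucin. The labels describe the Winnie tissue as inflamed and the Winnie-Prolapse tissue as severely inflamed, and no agent is named for any group. Age and group cannot be told apart in any comparison with Winnie-Prolapse. Each library is a separate mouse, and the libraries are from whole tissue pieces, so fewer cells of a type and less RNA per cell cannot be told apart.

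Trypsin-like serine proteases are made as inactive precursors and cut proteins after a basic residue. In the gut, matriptase (St14) and prostasin (Prss8) act together at the surface of epithelial cells, where they take part in the upkeep of tight junctions and in the activation of the epithelial sodium channel. The Kunitz-type inhibitors HAI-1 (Spint1) and HAI-2 (Spint2) are membrane proteins that bind and block both enzymes. Protease-activated receptor 2 (F2rl1) is a G protein-coupled receptor switched on when a trypsin-like protease cuts its outer end, and it is studied as a mediator of pain and inflammation in the bowel.

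The coding sequence around the active-site serine is shown for the 6 proteases, since it is the stretch the whole family shares. The pattern searched was the conserved motif around that serine, read in frame on the coding strand only. Each coding sequence held it exactly 1 time, and the serine codon starts at the seventh base. Capitals mark the 18 bases matched by the pattern and lower case the 12 bases that follow, 5′ to 3′ on the coding strand:
Prss22: GGCGACTCTGGGGGTCCCctgatgtgccag
Prss27: GGTGACTCTGGAGGCCCActggtgtgcctt
Prss8: GGTGACTCTGGGGGCCCActctcttgtccc
St14: GGTGACTCTGGTGGCCCCttgtcaagcgcg
Tmprss2: GGAGACAGTGGAGGGCCGctggttactttg
Tmprss4: GGTGACAGTGGTGGGCCTttgatgtaccat
The serine codon was TCT in Prss22, Prss27, Prss8 and St14, and AGT in Tmprss2 and Tmprss4. In all 6 genes the pattern opened an exon, with 0 bases between the exon start and its first base. That exon was exon 6 of 6 in Prss22, Prss27 and Prss8, exon 19 of 19 in St14, exon 13 of 14 in Tmprss2 and exon 12 of 13 in Tmprss4. Of the 18 bases, 17 were identical between Prss27 and Prss8, 14 between Prss22 and Prss27, and 12 between Prss22 and either Tmprss gene. On GRCm38 the 30 bases of Prss22 lie at chr17:23994015-23994044 on the minus strand, and those of Prss27 at chr17:24045552-24045581 on the plus strand. The sequences and exons are those of the transcript with the longest coding sequence in GENCODE M21.

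Both genes whose level moved most are neighbours on chromosome 17. Prss22 (ENSMUSG00000045027) spans chr17:23993534-23998100 on the minus strand and Prss27 (ENSMUSG00000050762) spans chr17:24038144-24045954 on the plus strand, with a gap of 40043 bp between them. The nearest other protein-coding genes are Prss30, a related protease gene on the far side of Prss22, and Kctd5 on the far side of Prss27. In Winnie-Prolapse vs. C57BL/6, the log2 fold change of Prss30 stood at -0.88 ± 0.42 (SE) with an edgeR adjusted p = 0.0859. Kctd5 rose by 0.68 ± 0.091 (adjusted p = 2.46e-05). The other members lie on chromosomes 2 (Spint1), 7 (Prss8 and Spint2), 9 (St14 and Tmprss4), 13 (F2rl1) and 16 (Tmprss2). Prss8 overlaps Kat8, St14 overlaps Gm16071, and Tmprss4 overlaps Gm17099 and BC049352, each on the opposite strand. The strand setting of the counting is not given in the sources used here, so reads of these overlapping genes cannot be told apart.

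Levels are given in CPM, the counts of a gene scaled to the total of its library, and libraries held 24817527 to 36344372 counts. A gene at 0 could still have had a level of up to 3 counts, which was 0.0825 to 0.121 CPM depending on the library. All 10 epithelial markers (Epcam, Cdh1, Krt8 and others) were above 3 counts in all 22 libraries, with summed levels of 13859 to 16539 CPM in C57BL/6, 14420 to 20216 CPM in Winnie and 11161 to 21040 CPM in Winnie-Prolapse. Summed colonocyte markers were 5662 to 9514 CPM in C57BL/6 and 406 to 4073 CPM in Winnie-Prolapse. Squamous epithelial markers (Krt5, Krt14, Trp63 and others, 13 genes) summed to 4.72 to 6.76 CPM in C57BL/6, to 3.97 to 61.4 CPM in Winnie and to 4.15 to 3589 CPM in Winnie-Prolapse. Of the 13, 3 to 7 were above 3 counts in the C57BL/6 libraries and 5 to 13 in the Winnie-Prolapse libraries, and Krt6a was at 0 in 3 of 8 C57BL/6 libraries and in 1 of 7 Winnie-Prolapse libraries. Winnie-Prolapse replicates 1 and 3 had squamous sums of 6.30 and 4.15 CPM. In Winnie-Prolapse replicate 6, 18.0% of the counts came from 6 milk protein genes, and replicate 5 held 54.2 CPM of them, against at most 5.49 CPM elsewhere. A share of that size lowers the CPM of every other gene in replicate 6.

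In the C57BL/6 colon the members formed a steep order of levels. Levels were compared between genes as RPKM, which is CPM per kilobase of the mRNA. Spint2 was highest at 980 ± 48.4 RPKM (SD, n = 8), followed by Tmprss2 (218 ± 50.3), Spint1 (138 ± 24.4), St14 (107 ± 20.4), Tmprss4 (93.6 ± 8.06), F2rl1 (66.8 ± 9.54) and Prss8 (24.3 ± 4.12). Prss27 (0.348 ± 0.416) and Prss22 (0.0238 ± 0.0396) stood far below the other 7. The means of St14 and Tmprss4, and those of Prss27 and Prss22, differed by less than the larger SD of the pair, and the means of all other neighbours in this order differed by more. In Winnie, St14 (137 ± 16.5, n = 7) and Spint1 (136 ± 19.2) had nearly equal means, and so had Prss22 (1.61 ± 3.41) and Prss27 (1.01 ± 1.21) against their spread. In Winnie-Prolapse the order at the top was the same for Spint2 (699 ± 206 RPKM, n = 7) and Tmprss2 (249 ± 39.1). There St14 (127 ± 15.4), Spint1 (102 ± 20.4) and Tmprss4 (101 ± 12.0) lay close together, and Prss22 (19.03 ± 11.5) came up to the level of Prss8 (25.2 ± 1.47). The order depends on the length used: over all annotated exons, the C57BL/6 means were 298 for Spint2, 113 for Spint1, 94.5 for Tmprss2, 82.6 for Tmprss4 and 45.7 for St14.

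Prss22, also known as tryptase epsilon, is a secreted trypsin-like protease that can activate pro-urokinase. It was close to silent in C57BL/6, with 0 counts in 5 of 8 libraries and a highest level of 0.145 CPM, reached by replicate 7 with 4 counts. In Winnie the lowest, median and highest levels were 0, 0.270 and 12.3 CPM. In Winnie-Prolapse they were 6.87, 28.1 and 48.2 CPM. All 7 Winnie-Prolapse libraries lay above every C57BL/6 library, and 5 of 7 Winnie libraries did. Of the Winnie-Prolapse libraries 5 of 7 were above all Winnie libraries. The overlap came from Winnie replicate 2, the library at 12.3 CPM, while the other 6 Winnie libraries were at or below 1.16 CPM.

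Pooled over the 8 libraries, Prss22 had 7 counts in C57BL/6 (0.0309 CPM, exact 95% Poisson interval 0.0124 to 0.0636), against 24.8 CPM in Winnie-Prolapse and 2.15 CPM in Winnie. The pooled level in Winnie-Prolapse was 804-fold that in C57BL/6, with bounds of 390-fold and 2000-fold at the limits of the C57BL/6 interval. The corresponding ratio in Winnie was 69.8-fold (33.9-fold to 174-fold), and replicate 2 held 385 of the 470 Prss22 counts in that group. These bounds cover counting error only. The fitted log2 fold change was 9.53 ± 0.63 (SE) in Winnie-Prolapse vs. C57BL/6 and 3.59 ± 0.99 in Winnie-Prolapse vs. Winnie. Without Winnie replicate 2 the second of these was 5.78 ± 0.73. In Winnie vs. C57BL/6 Prss22 was below the low-count filter, so the edgeR fit did not take it in.

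**Figure D1:**
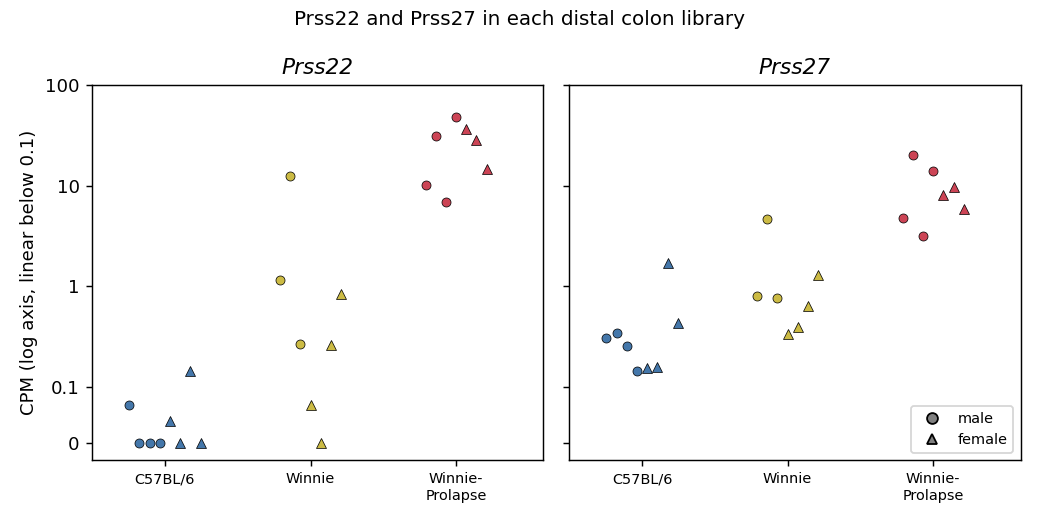
CPM of Prss22 and Prss27 in each library (circles males, triangles females) on a log axis that is linear below 0.1. The Winnie-Prolapse libraries sit at 6.87 to 48.2 CPM for Prss22 and at 3.15 to 20.4 CPM for Prss27, above all C57BL/6 libraries, and the single high Winnie point in both panels is replicate 2.

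Prss27, also called marapsin or pancreasin, is a membrane-anchored protease known from stratified squamous epithelia. Its lowest, median and highest levels were 0.145, 0.281 and 1.70 CPM in C57BL/6, 0.338, 0.771 and 4.61 CPM in Winnie, and 3.15, 8.01 and 20.4 CPM in Winnie-Prolapse. All 7 Winnie-Prolapse libraries were above all 8 C57BL/6 libraries, and 6 of 7 were above every Winnie library. The highest C57BL/6 library was replicate 7 and the highest Winnie library replicate 2, the same libraries that were highest for Prss22.

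Prss27 rose in Winnie-Prolapse vs. C57BL/6 by 4.45 ± 0.55 (SE) on the log2 scale (edgeR adjusted p = 1.23e-05). In Winnie-Prolapse vs. Winnie the log2 fold change was 2.89 ± 0.57 (adjusted p = 0.0155), past an adjusted p of 0.05 but not the limit of 0.001 used for calls. DESeq2 gave the same direction with an adjusted p of 5.17e-06. In Winnie vs. C57BL/6 it was 1.58 ± 0.63 (adjusted p = 0.0726). That value moved with single libraries: it was 2.33 (adjusted p = 0.00951) without C57BL/6 replicate 7 and 0.78 (adjusted p = 0.315) without Winnie replicate 2. Leaving out any 1 library in Winnie-Prolapse vs. C57BL/6 kept the call in 15 of 15 fits, with adjusted p-values of 2.46e-07 to 4.63e-05. In Winnie-Prolapse vs. Winnie it was 0.0622 without the 2 Winnie-Prolapse libraries that held milk protein RNA.

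Squamous markers were high in 5 of the 7 Winnie-Prolapse libraries, with sums of 377 to 3589 CPM, and in Winnie replicate 2, with 61.4 CPM. Those 5 libraries had 14.7 to 48.2 CPM of Prss22 and 5.89 to 20.4 CPM of Prss27. Winnie-Prolapse replicates 1 and 3, whose squamous sums lay within or below the C57BL/6 range, had 10.2 and 6.87 CPM of Prss22 and 4.82 and 3.15 CPM of Prss27, above all C57BL/6 libraries. A low sum does not mean that each marker was low. Krt6b was at 0.666 CPM or more in all Winnie-Prolapse libraries and at most 0.0952 CPM in C57BL/6. For each other squamous marker the lowest Winnie-Prolapse level was not above the highest C57BL/6 level. A fit of only Winnie-Prolapse replicates 1 and 3 against C57BL/6 was chosen after the data were seen. Its log2 fold change was 8.07 ± 0.61 for Prss22 and 3.33 ± 0.65 for Prss27 (edgeR adjusted p = 0.00546). Neutrophil markers other than Ly6g, 7 genes in all, summed to 0.471 to 3.24 CPM in C57BL/6, 1.48 to 125 CPM in Winnie and 66.9 to 1355 CPM in Winnie-Prolapse. Ly6g was left out, since with it the sums were already 4.27 to 359 CPM in C57BL/6. In Winnie-Prolapse replicates 1 and 3 they summed to 66.9 and 81.8 CPM, and in Winnie replicate 2 to 125 CPM. Summed mast cell markers ranged over 28.2 to 69.5 CPM in C57BL/6 and 21.8 to 33.2 CPM in Winnie-Prolapse, and Kit alone, a gene that is also active in other cells, was at 24.98 to 68.1 CPM and 9.75 to 23.2 CPM of that. The 9 mast cell markers other than Kit summed to 1.38 to 4.88 CPM in C57BL/6, 4.12 to 12.5 CPM in Winnie and 8.82 to 15.8 CPM in Winnie-Prolapse. In Winnie-Prolapse vs. C57BL/6, 3 of the 6 mast cell markers tested were called higher, the protease genes Mcpt1, Mcpt2 and Mcpt4, and 1 lower, Kit. A gene low in C57BL/6 can pass the low-count filter through Winnie-Prolapse, so the count is a description. Mcpt4, for one, had medians of 0.155 CPM in C57BL/6 and 2.28 CPM in Winnie-Prolapse. All 6 macrophage markers were called higher in that comparison, with sums of 51.8 to 117 CPM in C57BL/6, 76.0 to 214 CPM in Winnie and 144 to 309 CPM in Winnie-Prolapse. All 7 smooth muscle markers were called lower, with sums of 6845 to 12390 CPM, 2045 to 7540 CPM and 1370 to 3273 CPM in the same order of groups. Beside these counts of mast cell, macrophage and smooth muscle markers, 9.84% of all genes tested were called higher and 8.47% lower. The part of squamous cells, leukocytes and smooth muscle in the levels of both genes was not tested beyond these values.

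**Figure D2:**
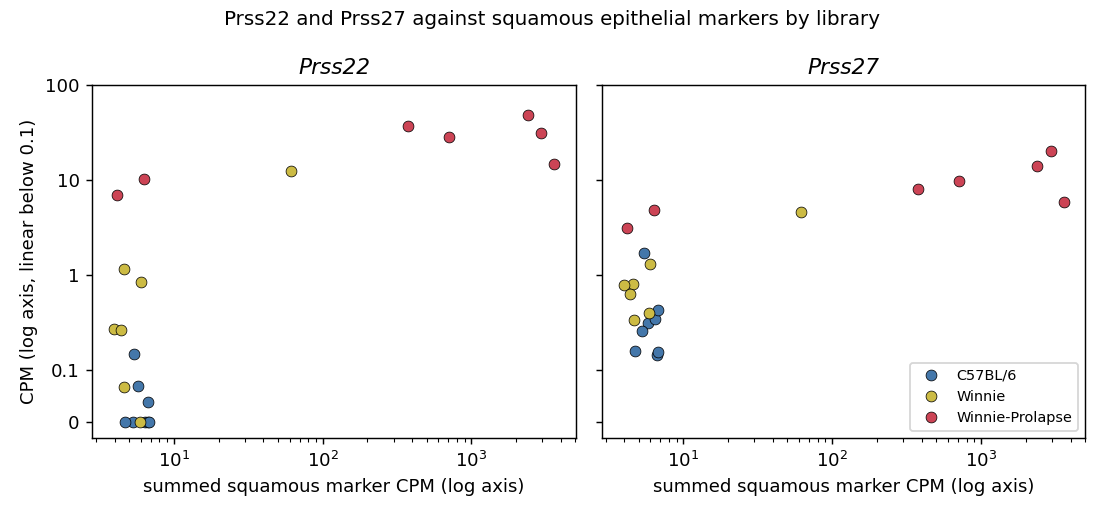
CPM of Prss22 and Prss27 against the summed CPM of squamous epithelial markers, 1 point per library, both on log axes with the y axis linear below 0.1. The Winnie-Prolapse points at squamous sums of 4.15 and 6.30 CPM lie above the C57BL/6 points at like sums in both panels.

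Prostasin and matriptase transcripts were abundant in every group, and their levels overlapped between groups. Prss8 had lowest, median and highest levels of 36.3, 43.7 and 58.2 CPM in C57BL/6, 44.8, 52.3 and 65.8 CPM in Winnie, and 43.1, 46.3 and 50.2 CPM in Winnie-Prolapse. The groups overlapped widely, and the Winnie-Prolapse libraries were the closest together, with a coefficient of variation of 5.84% against 16.9% in C57BL/6. Its log2 fold change was 0.34 ± 0.12 (SE, adjusted p = 0.0510) in Winnie vs. C57BL/6, 0.14 ± 0.11 (adjusted p = 0.297) in Winnie-Prolapse vs. C57BL/6 and -0.20 ± 0.11 (adjusted p = 0.261) in Winnie-Prolapse vs. Winnie.

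St14 had lowest, median and highest levels of 278, 339 and 496 CPM in C57BL/6, 362, 462 and 520 CPM in Winnie, and 348, 418 and 476 CPM in Winnie-Prolapse. The C57BL/6 library at 496 CPM was again replicate 7, and the next highest was at 368 CPM. In Winnie vs. C57BL/6 the log2 fold change of St14 was 0.45 ± 0.13 (SE) with an adjusted p of 0.0220, short of 1.5-fold, and leaving out each library in turn gave adjusted p-values of 0.00511 to 0.0484. In Winnie-Prolapse vs. C57BL/6 it was 0.34 ± 0.14 (adjusted p = 0.0590), and 0.44 (adjusted p = 0.00821) without C57BL/6 replicate 7. In Winnie-Prolapse vs. Winnie it was -0.11 ± 0.14 (adjusted p = 0.662).

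Tmprss2 and Tmprss4 encode type II transmembrane serine proteases, the first known for cutting viral glycoproteins and the second as another activator of the epithelial sodium channel. Tmprss2 had medians of 694 CPM in C57BL/6 (370 to 909 CPM), 789 CPM in Winnie (641 to 864 CPM) and 865 CPM in Winnie-Prolapse (612 to 892 CPM). Its lowest library was C57BL/6 replicate 7. The log2 fold change was 0.25 ± 0.15 (SE, adjusted p = 0.223) in Winnie vs. C57BL/6 and 0.29 ± 0.18 (adjusted p = 0.179) in Winnie-Prolapse vs. C57BL/6. Tmprss4 had medians of 215 CPM (184 to 235 CPM), 230 CPM (193 to 281 CPM) and 235 CPM (196 to 264 CPM) in the same order of groups. Its log2 fold change was 0.24 ± 0.10 (adjusted p = 0.0909) in Winnie vs. C57BL/6 and 0.20 ± 0.10 (adjusted p = 0.0963) in Winnie-Prolapse vs. C57BL/6. Between Winnie-Prolapse and Winnie the differences were 0.04 ± 0.14 (adjusted p = 0.900) for Tmprss2 and -0.04 ± 0.13 (adjusted p = 0.876) for Tmprss4.

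Both Kunitz inhibitors had their lowest levels in Winnie-Prolapse. Spint1 had lowest, median and highest levels of 231, 322 and 393 CPM in C57BL/6, 247, 317 and 356 CPM in Winnie, and 152, 227 and 302 CPM in Winnie-Prolapse. Of the Winnie-Prolapse libraries, 4 of 7 lay below every C57BL/6 library and 5 of 7 below every Winnie library. Its log2 fold change was 0.08 ± 0.13 (SE, adjusted p = 0.693) in Winnie vs. C57BL/6, -0.35 ± 0.14 (adjusted p = 0.0446) in Winnie-Prolapse vs. C57BL/6 and -0.42 ± 0.15 (adjusted p = 0.0833) in Winnie-Prolapse vs. Winnie. None of these reached 1.5-fold.

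Spint2 had lowest, median and highest levels of 1270, 1378 and 1449 CPM in C57BL/6, 931, 1265 and 1372 CPM in Winnie, and 627, 1032 and 1442 CPM in Winnie-Prolapse. Of the Winnie-Prolapse libraries 6 of 7 lay below every C57BL/6 library, and the seventh, replicate 3, was near the top of the C57BL/6 range. C57BL/6 libraries had a coefficient of variation of 4.94%, Winnie libraries of 13.6% and Winnie-Prolapse libraries of 29.4%. The log2 fold change was -0.08 ± 0.10 (SE, adjusted p = 0.590) in Winnie vs. C57BL/6, -0.40 ± 0.16 (adjusted p = 0.0496) in Winnie-Prolapse vs. C57BL/6 and -0.31 ± 0.20 (adjusted p = 0.315) in Winnie-Prolapse vs. Winnie. By CPM the lowest library for both inhibitors was Winnie-Prolapse replicate 6, where milk protein RNA lowers the CPM of all other genes. By log2 CPM scaled with TMM over the 22 libraries, replicate 6 was still lowest for Spint1 (7.53). For Spint2 Winnie-Prolapse replicate 4 was lowest on that scale (9.35), with replicates 5 and 6 both at 9.57. Leaving out replicates 5 and 6 of Winnie-Prolapse brought the difference from C57BL/6 to -0.23 (adjusted p = 0.237) for Spint1 and -0.25 (adjusted p = 0.249) for Spint2. With only the 2 libraries of low squamous sum it was -0.059 and 0.11. Leaving out 1 library at a time gave adjusted p-values of 0.00826 to 0.119 for Spint1 and 0.00236 to 0.128 for Spint2.

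F2rl1 had lowest, median and highest levels of 138, 181 and 224 CPM in C57BL/6, 187, 222 and 234 CPM in Winnie, and 138, 174 and 214 CPM in Winnie-Prolapse. By CPM, 3 of 7 Winnie libraries were above every C57BL/6 library. Winnie-Prolapse lay in the C57BL/6 CPM range apart from 1 library just below it, the milk protein library replicate 6. By log2 CPM scaled with TMM, replicate 6 was at 7.39, inside the C57BL/6 range of 7.03 to 7.75. On that scale Winnie-Prolapse replicates 3 (7.91) and 7 (7.84) were above the C57BL/6 range. The log2 fold change was 0.32 ± 0.11 (SE, adjusted p = 0.0348; 0.0153 to 0.0755 with each library left out) in Winnie vs. C57BL/6, 0.06 ± 0.13 (adjusted p = 0.721) in Winnie-Prolapse vs. C57BL/6 and -0.26 ± 0.14 (adjusted p = 0.226) in Winnie-Prolapse vs. Winnie.

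**Figure D3:**
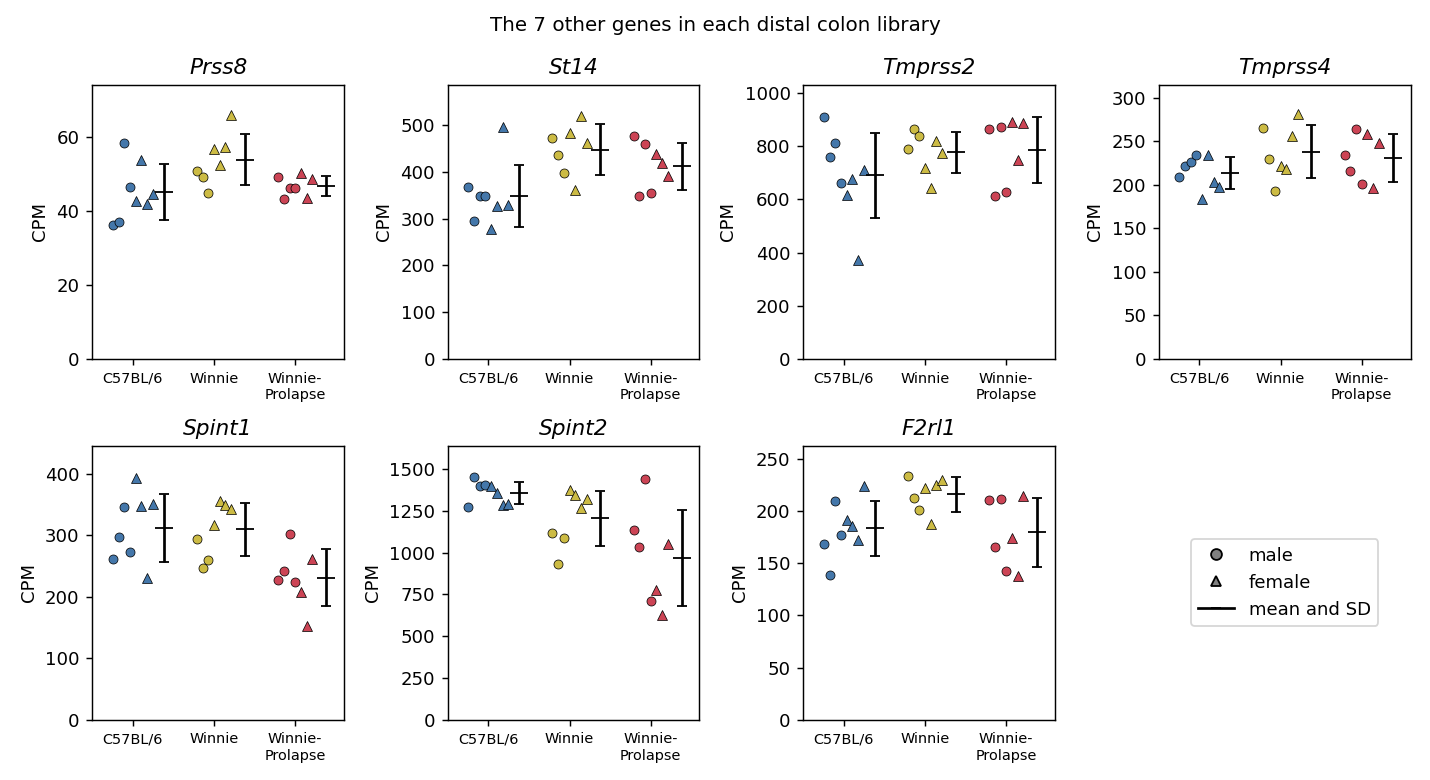
CPM of the 7 abundant members in each library (circles males, triangles females), each panel on its own axis from 0, with the group mean and SD to the right of the points. The groups overlap in all 7 panels, and the spread of Spint2 runs from 627 to 1442 CPM in Winnie-Prolapse against 1270 to 1449 CPM in C57BL/6.

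A gene was called at an adjusted p under 0.001 and at least 1.5-fold. In Winnie vs. C57BL/6, edgeR called 0 of the 8 members tested and 0.0925% of the 17289 genes tested (0.0868% higher, 0.00578% lower). DESeq2 also called 0 of these 8, where it called 5.44% of the 22121 genes to which it gave an adjusted p. Unadjusted p-values under 0.05 were found for 5 of the 8, Prss27, Prss8, St14, Tmprss4 and F2rl1, and for 39.9% of all genes. By adjusted p alone, 2 of the 8 were under 0.05, St14 and F2rl1, a share near that over all genes, 25.7%. With the fold limit 0 of 8 passed at 0.05, against 15.9% of all genes (7.42% higher, 8.53% lower). In 0 of 8 members, and 1.64% of genes, the CPM ranges of the groups did not overlap. The median log2 fold change of the 8 members was 0.29, beside -0.01 over all genes, and 7 of 8 were positive. The 10 epithelial markers also had a positive median in this comparison, 0.16. In Winnie-Prolapse vs. C57BL/6, 2 of 9 members were called, Prss22 and Prss27, both higher, where 9.84% of the 17397 genes tested were called higher and 8.47% lower. The rise of Prss22 in this comparison chose the set, so the count is a description. At an adjusted p under 0.05 and 1.5-fold the count was again 2 of 9, where 34.4% of genes passed. By adjusted p alone, 3 of the 8 others were under 0.05, Prss27, Spint1 and Spint2, beside 52.5% of all genes. Leaving Prss22 out, the median log2 fold change of the 8 others was 0.17 beside -0.01 over all genes and 0.17 for the 10 epithelial markers. In 2 of 9 members, Prss22 and Prss27, the ranges did not overlap in the direction of a rise, against 6.5% of genes. Since Prss22 chose the set, that count is a description too. In the direction of a fall it was 0 of 9, against 9.45%.

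In Winnie-Prolapse vs. Winnie, 0 of 9 members and 0% of the 17041 genes tested were called with edgeR, while DESeq2 called 1 member, Prss27, and 2.89% of the 22256 genes to which it gave an adjusted p. Unadjusted p-values under 0.05 were found for 2 of the 8 members other than Prss22, Prss27 and Spint1, a share near the 27.8% of all genes. At an adjusted p under 0.05 and 1.5-fold, 1 of these 8 passed, Prss27, again higher, against 4.27% of genes called higher and 2.72% called lower (6.99% in all). The values of Prss22 were past the same limits, which is a description, since Prss22 chose the set. Ranges that did not overlap were found in 0 of 9 members and 0.962% of genes (0.411% higher). The median of the 8 members other than Prss22 was -0.16 on the log2 scale beside 0.01 over all genes and -0.15 for the 10 epithelial markers. The comparisons share samples, since the same C57BL/6 libraries enter 2 of them and the same Winnie libraries 2 of them.

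**Figure D4:**
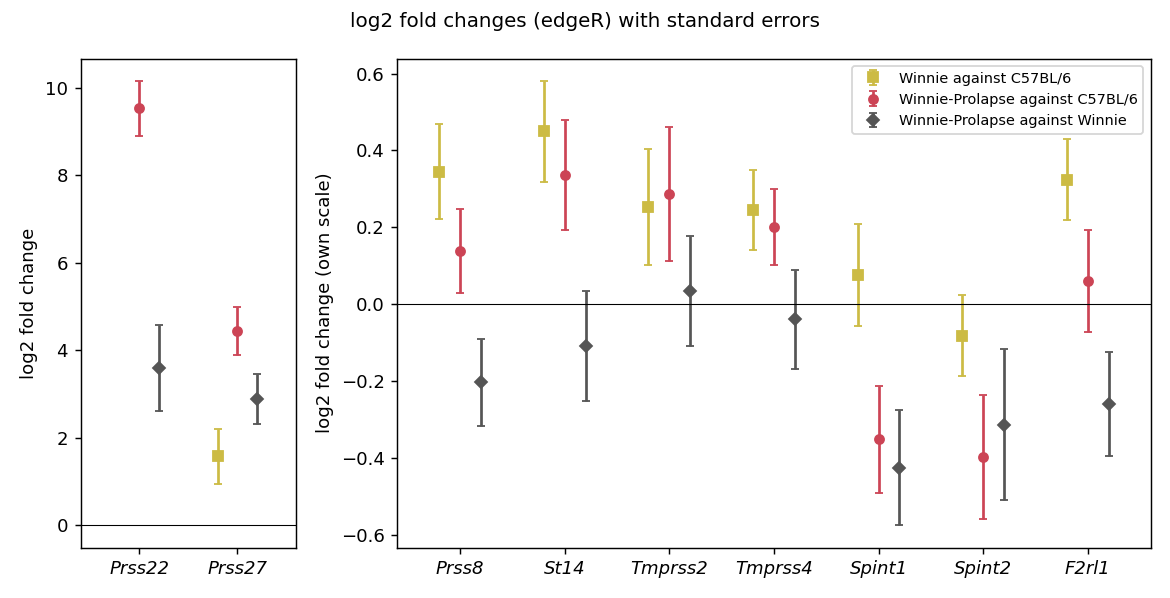
log2 fold change of each member with its standard error (edgeR) in the 3 comparisons, with Prss22 and Prss27 on the left axis and the 7 others on an axis of their own. Prss22 has no point for Winnie vs. C57BL/6, where the edgeR fit did not take it in, and the 7 others stay between -0.42 and 0.45.

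The balance of protease to inhibitor transcripts was described as a ratio of RPKM values within each library, which does not depend on the library total. Matriptase to HAI-1 (St14 to Spint1) was 0.821 ± 0.312 (SD, n = 8) in C57BL/6, 1.02 ± 0.164 (n = 7) in Winnie and 1.29 ± 0.338 (n = 7) in Winnie-Prolapse. St14 to Spint2 was 0.110 ± 0.0251, 0.160 ± 0.0273 and 0.193 ± 0.0549 in the same order. Prss8 to Spint1 was 0.180 ± 0.0316, 0.215 ± 0.0211 and 0.257 ± 0.0541, and Tmprss4 to Spint1 was 0.702 ± 0.144, 0.773 ± 0.112 and 1.02 ± 0.172. All 4 means were ordered C57BL/6, Winnie, Winnie-Prolapse, and the ranges of neighbouring groups overlapped. Without the 2 Winnie-Prolapse libraries that held milk protein RNA, the Winnie-Prolapse means (n = 5) were 1.13 ± 0.188 for St14 to Spint1, 0.165 ± 0.0309 for St14 to Spint2, 0.230 ± 0.0306 for Prss8 to Spint1 and 0.923 ± 0.0651 for Tmprss4 to Spint1. The first 3 of these lay within 1 SD of the Winnie mean. C57BL/6 replicate 7 had a St14 to Spint1 ratio of 1.496, above all 7 Winnie libraries. The ratio of the inhibitors to each other, Spint2 to Spint1, was 7.31 ± 1.23, 6.40 ± 0.414 and 6.81 ± 1.03. These ratios were not tested, and they compare transcripts and not protein or enzyme activity.

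**Figure D5:**
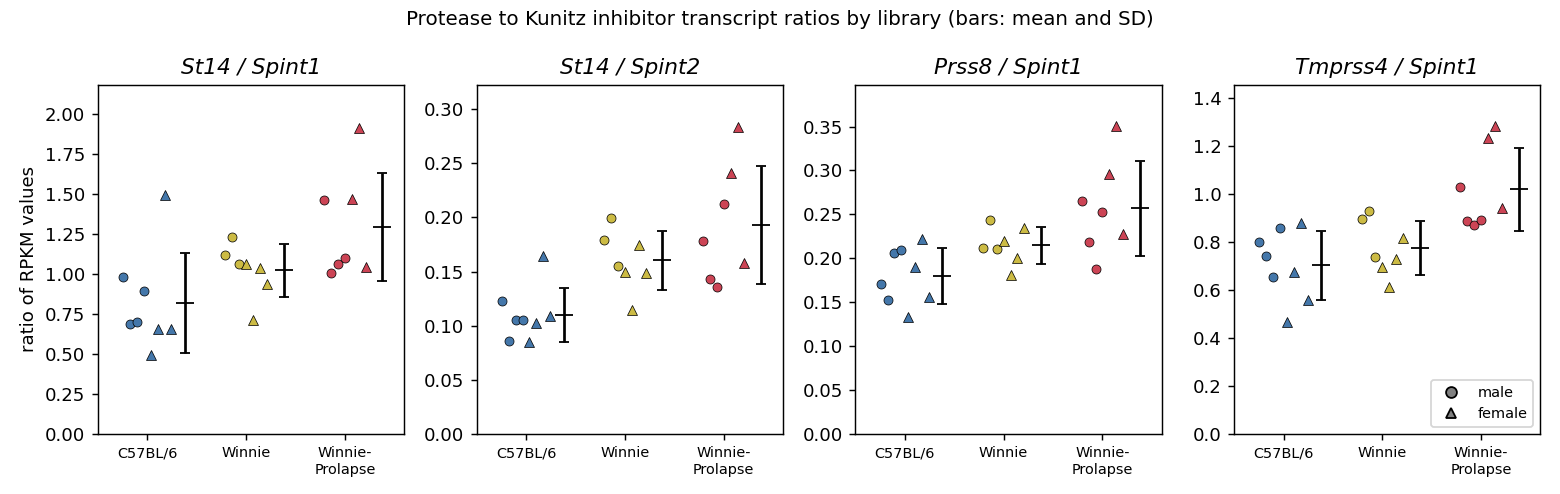
Ratios of RPKM values for St14 to Spint1, St14 to Spint2, Prss8 to Spint1 and Tmprss4 to Spint1 in each library (circles males, triangles females), with the group mean and SD to the right. The means over all libraries are lowest in C57BL/6 and highest in Winnie-Prolapse, points of neighbouring groups overlap in each panel, and without the 2 milk protein libraries St14 to Spint2 is 0.165 in Winnie-Prolapse beside 0.160 in Winnie.

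Since the members are known from epithelia, each was also expressed relative to the mean log2 CPM of the 10 epithelial markers in the same library. For C57BL/6 that mean was 9.63 ± 0.30 (SD, n = 8), for Winnie 9.88 ± 0.21 (n = 7) and for Winnie-Prolapse 9.64 ± 0.26 (n = 7). The 8 members other than Prss22 were compared in each of the 3 pairs of groups, 24 two-sided exact permutation tests in all, with raw p-values. Prss27 was higher relative to the markers by 4.39 on the log2 scale in Winnie-Prolapse vs. C57BL/6 (exact permutation p = 0.000155, the smallest it can give) and by 3.35 in Winnie-Prolapse vs. Winnie (exact permutation p = 0.00175). Spint2 differed by -0.55 in Winnie-Prolapse vs. C57BL/6 (exact permutation p = 0.00497) and by -0.43 in Winnie vs. C57BL/6 (exact permutation p = 0.0166). St14 differed by 0.25 in Winnie-Prolapse vs. C57BL/6 (exact permutation p = 0.0146) and by 0.12 in Winnie vs. C57BL/6 (exact permutation p = 0.0444). The other 18 tests had p-values from 0.0514 to 0.978. With Epcam alone as the reference, members with p under 0.05 were 6, 5 and 4 of 8 in place of 2, 3 and 1, in the order Winnie vs. C57BL/6, Winnie-Prolapse vs. C57BL/6 and Winnie-Prolapse vs. Winnie. The size of a difference depended on the reference. Each marker weighs the same in the mean of 10, though some varied widely among libraries. In C57BL/6, Cdx2 ran from 2.31 to 315 CPM and Krt20 from 443 to 2170 CPM, against 1489 to 1747 CPM for Epcam. The part of such markers in the permutation p-values was not tested apart from the use of Epcam alone. With Epcam alone Spint2 differed by -0.15 in Winnie vs. C57BL/6 and -0.44 in Winnie-Prolapse vs. C57BL/6, and St14 by 0.40 and 0.35.

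Sex, which played no part in choosing the members, was tested in a model of the 22 libraries that also held the group. For 0 of 9 members the difference between males and females had an adjusted p under 0.05 in edgeR or in DESeq2, where 0.0788% of 17769 genes did in edgeR. Unadjusted, 0 members were under 0.05 in edgeR and 1, Prss8, in DESeq2 (0.0455). The edgeR p of Prss8 was 0.0585, with males minus females at -0.18 ± 0.092 (SE) on the log2 scale, and the largest difference was that of Prss22 at 1.25 ± 0.82 (adjusted p = 0.966). In the sex by group interaction 0 of 9 members and 0 of 17769 genes passed in edgeR. Among members, Prss22 alone had an unadjusted interaction p under 0.05 in edgeR (0.0160, adjusted p = 0.311). DESeq2 gave 172 genes with 0 members among them, and unadjusted p-values under 0.05 for Prss22, Prss27 and Spint2.

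The genes whose profile over the 22 libraries was most like that of a member were found by the root mean square difference of log2 CPM, each gene centred on its own mean. For Prss22 they were Lrg1 (0.84), S100a8 (1.07), Clec4e (1.11), S100a9 (1.12) and Myot (1.12). Of these, S100a8 and S100a9 encode the subunits of calprotectin, a neutrophil protein used as a stool marker of colitis, Clec4e a receptor of myeloid cells and Lrg1 a secreted glycoprotein induced in inflammation. Lrg1 had medians of 1.83 CPM in C57BL/6, 3.78 CPM in Winnie and 194 CPM in Winnie-Prolapse. For Prss27 they were Cers3 (0.57), a ceramide synthase of the skin barrier, Cwh43 (0.58) and Tnfrsf23 (0.59). Cers3 had medians of 0.163, 0.463 and 7.50 CPM in the same order of groups.

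For the abundant members, which varied less, the distances were smaller. The nearest genes were Tm9sf2, Lnx2 and Pgm1 for St14 (0.14 to 0.15), Tbc1d13, Arhgef16 and Mavs for Prss8 (0.15 to 0.17), BC030870, Golm1 and Nans for Tmprss2 (0.15 to 0.18) and Tspan31, Dnpep and Trappc1 for Tmprss4 (0.094 to 0.12). For the inhibitors they were Tbc1d2, Ggt6 and Mcl1 with Spint1 (0.14 to 0.16) and Cox4i1, a subunit of cytochrome c oxidase, Higd2a and Trappc6a with Spint2 (0.10 to 0.12). For F2rl1 they were Rbm47, Tmem8 and Lactb2 (0.12 to 0.14).

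Among the other membrane-anchored or secreted serine proteases that could be tested, 3 were called lower and 0 higher. Of the 23 genes listed, 10 were tested in Winnie-Prolapse vs. C57BL/6, beside 9.84% of all genes called higher and 8.47% called lower. At an adjusted p under 0.05 and 1.5-fold, 1 rose and 5 fell. The genes that fell were Tmprss5 (log2 fold change -2.63 ± 0.39, adjusted p = 6.43e-05), Prss23 (-1.496 ± 0.30, adjusted p = 0.000715) and Prss36 (-1.06 ± 0.19, adjusted p = 0.000352). All 7 smooth muscle markers were called lower as well, and which cells of the tissue the 3 falls came from was not tested. The median log2 fold change of the 10 tested genes was -0.82 beside -0.01 over all genes tested. Tmprss11a, Tmprss11b, Tmprss11d, Tmprss11e, Tmprss11f and Tmprss11g did not pass the low-count filter. All of them had higher means in Winnie-Prolapse than in C57BL/6. Tmprss11b was at 0 to 43.9 CPM in Winnie-Prolapse and at most 0.0317 CPM in C57BL/6, and Tmprss11a at 0 to 43.2 CPM and at 0. Among other untested genes, Prss21 (0.0696 to 0.0327 CPM) and Tmprss9 (0.189 to 0.0530 CPM) had lower means there. In the same comparison 3 of 7 tested kallikreins and other activators rose and 1 fell, with a list median of 1.31. F10, the gene of coagulation factor X, rose by 4.43 ± 0.52 (adjusted p = 7.15e-06), the kallikrein Klk8 by 3.64 ± 0.66 (adjusted p = 0.000319) and Plau, which encodes urokinase, by 1.79 ± 0.32 (adjusted p = 0.000264). Klk1, tissue kallikrein, went from 845 ± 237 CPM (SD, n = 8) to 167 ± 122 CPM (n = 7), a log2 fold change of -2.24 ± 0.37 (adjusted p = 0.000152). A gene low in C57BL/6 can pass the low-count filter through Winnie-Prolapse, which raises the count of rises and the median. In Winnie vs. C57BL/6, 6 activators were tested, with a median of -0.09. The count and the median of 1.31 are therefore descriptions.

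Among secreted and cytosolic inhibitors, 4 of 13 tested in Winnie-Prolapse vs. C57BL/6 rose and 2 fell, with a list median of 0.27. Over all genes tested 9.84% were called higher and 8.47% lower. Inhibitor genes, too, can pass the low-count filter through Winnie-Prolapse, so this count and median are descriptions. Spink5, the inhibitor LEKTI of stratified epithelia, rose by 7.82 ± 1.21 (edgeR adjusted p = 8.43e-05), and Slpi, the secretory leukocyte protease inhibitor, by 4.72 ± 0.31 (adjusted p = 3.28e-08). Spink5 ranged from 0.148 to 144 CPM among Winnie-Prolapse libraries, overlapping the C57BL/6 range of 0.0386 to 0.596 CPM, while Slpi was at 133 to 459.7 CPM against 4.41 to 17.1 CPM. Spink4, a goblet cell inhibitor, and Serpinb5 also rose, by 1.17 and 1.02, and Tfpi fell by 0.95; they are named after their values were seen. Wfdc1 fell by 1.48 ± 0.25 (adjusted p = 0.000190).

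Of the other protease-activated receptors and their signalling genes, 1 of 11 tested rose and 1 fell, with a list median of 0.08. These shares are near those over all genes, 9.84% called higher and 8.47% lower. Arrb2, a beta-arrestin that binds the activated receptor, rose by 1.03 ± 0.15 (adjusted p = 4.71e-05), and Plcb1, a phospholipase C downstream of Gq, fell by 1.06 ± 0.21 (adjusted p = 0.000551). F2r, which encodes protease-activated receptor 1, had a log2 fold change of 0.39 ± 0.094 (adjusted p = 0.00283), and Arrb1, the other beta-arrestin, one of -0.36 ± 0.12 (adjusted p = 0.0237). Among substrates and partners of matriptase and prostasin, 6 of 16 tested rose and 0 fell, beside the same shares over all genes, with a list median of 0.53. Tgm1, the transglutaminase of cornified epithelium, rose by 5.57 ± 0.74 (adjusted p = 2.24e-05). Plaur, the urokinase receptor, rose by 3.74 ± 0.31 (adjusted p = 3.46e-07), Hgf, the growth factor whose precursor matriptase cuts, by 2.65 ± 0.28 (adjusted p = 2.97e-06), and Egfr by 1.19 ± 0.17 (adjusted p = 3.91e-05). Met, the receptor of Hgf, and Lamb3 made up the 6, with 0.88 and 0.72, and are named after their values were seen. Tgm1 ranged from 0.393 to 33.5 CPM in Winnie-Prolapse and Klk8 from 0.385 to 11.2 CPM, both within libraries whose squamous sums ran from 4.15 to 3589 CPM, and the part of squamous cells in these rises was not tested.

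In Winnie vs. C57BL/6 and in Winnie-Prolapse vs. Winnie, 0 genes of these 5 lists were called by edgeR at the 0.001 limit. At an adjusted p under 0.05 and 1.5-fold, Winnie vs. C57BL/6 had 1 of 6 tested activators, 2 of 12 inhibitors and 2 of 16 substrates higher, and 2 of 10 proteases and 3 of 12 inhibitors lower, with 0 of 11 receptor genes in either direction. Over all genes, 7.42% were higher and 8.53% lower at these limits, and nothing is read from counts this small. The genes are named here after their values were seen. Those higher were Slpi (3.65 ± 0.53, adjusted p = 0.00128), Spink4 (1.07 ± 0.20, adjusted p = 0.00361), Hgf (1.66 ± 0.38, adjusted p = 0.00786), Plaur (1.43 ± 0.37, adjusted p = 0.0131) and Klk8 (0.97 ± 0.27, adjusted p = 0.0196). Those lower were Tfpi (-0.80 ± 0.13, adjusted p = 0.00186), Tmprss5 (-1.48 ± 0.36, adjusted p = 0.0100), Wfdc1, Prss23 and Serpine2, the last 3 with adjusted p-values of 0.0106 to 0.0419. In Winnie-Prolapse vs. Winnie the same limits left 1 of 10 proteases, 3 of 7 activators, 5 of 14 inhibitors and 3 of 16 substrates higher, among them F10, Spink5, Tgm1 and Plaur. Klk1 and Prss41 were lower, as were 2.72% of all genes, while 4.27% were higher. Since a gene can pass the low-count filter through the group where it is high, these counts are descriptions.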

How the data were processed

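Poly(A) RNA was extracted from distal colon of 22 mice and made into stranded libraries. The authors mapped reads to GRCm38 with the RNAsik pipeline and counted them per gene with featureCounts, and STAR and limma are named in the submitters' processing notes. The deposited values are raw counts, whole numbers with no normalization, in a single table. Annotation release, strand setting and handling of shared reads are not given in the sources used here.

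Groups, sex and age were read from the labels. The 2 groups of each comparison were fitted with edgeR 4.0.16 (quasi-likelihood F test, TMM, filterByExpr) in R 4.3.3, with Benjamini-Hochberg adjustment over all genes tested. Log2 CPM used a prior count of 2. Checks with DESeq2 1.42.0 and limma-voom (limma 3.58.1) used the same table. Library depths and the 3-count limit are given with the results and cover counting error only. Each library was a separate mouse per the labels. Gene positions, transcripts and coding sequences came from GENCODE M21. RPKM used the mRNA with the longest coding sequence.

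The 9 members and all gene lists were chosen with earlier results of these data known. Named genes were all members, up to 4 per list with the largest change in Winnie-Prolapse vs. C57BL/6 and at least 1 CPM on average, and the 3 nearest profiles per member (5 for Prss22). A gene of the inhibitor list that this rule names is not reported here.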

Additional observations from a re-analysis of the deposited data

Results flagged for a closer look

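Of 27 sets of values, 9 genes in each of 3 groups, 5 had 1 library standing apart from the rest of its group by Dixon's 95% critical value. Chance gives about 1 in 20 only for normally distributed values in independent sets. The CPM values were not transformed and the sets share libraries, so the flags are a description. In C57BL/6 the library was replicate 7 each time: Prss22 was at 0.145 CPM against 0.0683 CPM in the next library, Prss27 at 1.70 CPM against 0.431 CPM, and St14 at 496 CPM against 368 CPM. The Prss22 value rests on 4 counts. In Winnie the library was replicate 2 both times, with Prss22 at 12.3 CPM against 1.16 CPM and Prss27 at 4.61 CPM against 1.31 CPM. Winnie replicate 2 also had the highest squamous marker sum of its group (61.4 CPM) and the highest neutrophil marker sum without Ly6g (125 CPM).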

How the results depend on the processing

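With 8, 7 and 7 libraries, the count of members called in Winnie vs. C57BL/6 was 0 and became 1 with DESeq2, a description since the gene was Prss22, which chose the set and had 385 of its 470 Winnie counts in replicate 2. In Winnie-Prolapse vs. C57BL/6 it was 2 and became 1 when only the 2 libraries with low squamous sums were used, where Prss27 missed the 0.001 limit. This alternative, the one without libraries holding milk protein RNA (used for fold changes and for the RPKM ratios) and the length over all annotated exons were chosen after seeing the data. In Winnie-Prolapse vs. Winnie it was 0, 2 at an adjusted p under 0.05 (Prss27, and Prss22 as a description) and 1 with DESeq2. The counts were otherwise the same, also with each library left out. Small log2 fold changes turned sign: with library size only, Spint1 in Winnie vs. C57BL/6 was -0.014 and F2rl1 in Winnie-Prolapse vs. C57BL/6 -0.021. Spint2 was 0.11 with the low squamous libraries, and Tmprss2 was -0.022 in Winnie-Prolapse vs. Winnie without the milk protein libraries. With each library left out, F2rl1 in Winnie-Prolapse vs. C57BL/6 ran from -0.024 to 0.14, Tmprss2 in Winnie-Prolapse vs. Winnie from -0.018 to 0.12 and Tmprss4 from -0.10 to 0.016.

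Relative to the epithelial markers, members with p under 0.05 numbered 6, 5 and 4 with Epcam alone in Winnie vs. C57BL/6, Winnie-Prolapse vs. C57BL/6 and Winnie-Prolapse vs. Winnie, and ran from 1 to 4, 3 to 4 and 1 to 2 with each library left out. With Epcam alone, the differences in Winnie vs. C57BL/6 became 0.24 for Tmprss2, 0.18 for Tmprss4, 0.023 for Spint1 and 0.28 for F2rl1. F2rl1 became 0.059 in Winnie-Prolapse vs. C57BL/6, and in Winnie-Prolapse vs. Winnie Prss8 became -0.13 and St14 -0.050. With each library left out, relative levels in Winnie vs. C57BL/6 ran from -0.084 to 0.075 for Prss8, -0.25 to 0.0085 for Tmprss2 and -0.10 to 0.074 for F2rl1. In Winnie-Prolapse vs. C57BL/6 they ran from -0.035 to 0.13 for Prss8 and -0.14 to 0.034 for F2rl1, and in Winnie-Prolapse vs. Winnie from -0.00065 to 0.12 for Prss8. The causes were not tested. No paired analysis was possible because the labels give no replicate numbers that link mice between groups. Depth limits Prss22 in C57BL/6, where its 7 counts in all set the bounds of any fold.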
